A study of Mus musculus with 2 samples.

Results

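Chemokines are the secreted proteins that draw leukocytes out of the blood and position them in a tissue, and 10 of their genes were described here in the stromal cells of adult mouse skeletal muscle: Ccl2, Ccl7, Ccl8, Ccl11, Cxcl1, Cxcl5, Cxcl10, Cxcl12, Cxcl13 and Cxcl14. They were chosen by their symbols, 10 of the 28001 features listed in both count matrices, and the choice was made with earlier results of these data known. Their levels are therefore a description and carry no test. Of the 10 genes, 9 were at their highest level in a fibroblast-like population of the E10 pulse library and 8 in the adult pulse library. Most populations compared were fibroblast-like, and no share over all genes stands beside these counts. For Cxcl5 the highest adult pulse level was only 4.23 CPM, with overlapping intervals. Cxcl12 was an exception in both libraries, with its highest level in pericyte-like cells. Cxcl1 was highest in perineurial-like cells of the adult pulse library. Within the fibroblasts, Ccl11 and Cxcl14 were highest in or near the Col15a1 subset, Cxcl13 was highest in the Apoe subset, and Ccl2, Ccl7 and Ccl8 were highest in cells carrying an activated-matrix signature.

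Chemokines bind G protein-coupled receptors on leukocytes, and the names CC and CXC refer to the spacing of their first conserved cysteines. Ccl2, Ccl7 and Ccl8 attract monocytes, Ccl11 attracts eosinophils, Cxcl1 and Cxcl5 attract neutrophils, Cxcl10 attracts activated T cells and Cxcl13 attracts B cells, whereas Cxcl12 retains Cxcr4-bearing cells and Cxcl14 is made constitutively in many epithelia. In muscle, stromal fibroblasts, also called fibro/adipogenic progenitors, lie between the fibres and are a known source of such signals after injury.

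The 2 libraries were made from tibialis anterior muscles pooled from hindlimbs of Hic1 CreERT2/CreERT2 mice that were also Rosa26 LSL tdTomato/tdTomato, on the C57BL/6J strain. In these animals tamoxifen activates a Cre recombinase made only where the Hic1 gene is active, so tdTomato marks the cells that expressed Hic1 at the pulse and their descendants. For the E10 pulse library, 1 dose of 7.5 mg was gavaged to pregnant dams at embryonic day 10, and for the adult pulse library 5 daily doses of 2.5 mg were injected at 8 weeks of age. Sorted tdTomato-positive cells without the lineage markers Cd45, Cd31, CD11b, F4/80, Ter119 and CD117 were profiled with 10x 3′ chemistry, for which the labels name 2 versions without saying which library used which. The study's text names version 3 of the kit for muscle cells collected at postnatal day 56. Every animal carried the homozygous CreERT2 allele at Hic1, and no muscle without it was compared. The labels place collection at postnatal day 56 for both libraries, whereas the study's text describes a later collection for the adult pulse. For mice labelled as embryos and traced into adulthood, the study's text also describes progesterone, caesarean delivery and cross-fostering. With 1 library in each group, labelling time, tamoxifen dose and route, this handling, library, chemistry and counting software version cannot be told apart. Each interval below covers counting error only.

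The E10 pulse library held 8236 barcodes with 67460919 UMIs (unique molecular identifiers, each standing for 1 captured transcript), of which 6087 cells were kept because they reached 1500 UMIs and stayed within 10% mitochondrial UMIs. For the adult pulse library the numbers were 9195 barcodes, 69153173 UMIs and 8567 cells. Median depths of the kept cells were 7648 and 7344 UMIs, and 15 barcodes occurred in both libraries, 11 of them among the kept cells. Populations were set by marker gates that used none of the 10 chemokines: a cell needed 4 of 8 markers to be called pericyte-like, VSMC-like (vascular smooth muscle), tenocyte-like or perineurial-like, and mural cells with 3 of 6 markers of the study's smooth muscle cell progenitor were called SMCP-like. Cells with 5 of 8 fibroblast markers (Pdgfra, Dpt, Cd34, Ly6a, Lum, Clec3b, Gsn and Mfap5) and no other gate were called fibroblast-like, 4235 cells (69.6%) in the E10 pulse library and 7121 cells (83.1%) in the adult pulse library. These were divided by the highest of 6 marker scores, scaled within each library, into subsets named after their gate genes, with 155 and 241 cells lying near the score limit. Fibroblast-like cells with at least 1 UMI of both Sox9 and Trf were then called Sox9 Trf cells, whatever their subset score (83 and 298 cells). This rule depends on depth, and their medians were 13826 and 8603 UMIs against 8686 and 7672 in all fibroblast-like cells. No cell passed the immune-like gate, in which Ptprc, the gene of the sorted-away CD45, had 0 UMIs in E10 pulse fibroblast-like cells and 5 UMIs in adult pulse ones. Cells holding immune UMIs, left out in an alternative below, were those with a UMI of Ptprc, Tyrobp, Fcer1g or Csf1r. Cells at the minimum of their gate were few, 17 and 14 of the pericyte-like and 32 and 41 of the tenocyte-like cells. Median marker counts followed the gates, with 8 of 8 fibroblast markers in each subset against 2 in pericyte-like cells, and 7 of 8 pericyte markers in pericyte-like cells against 0 or 1 in the fibroblast subsets. The same markers set the gates, so these counts describe the populations and are no independent check of them. Levels are given as CPM, the UMIs of a gene for every 1000000 UMIs summed over a population. These are 3′ counts that are not divided by gene length, so each gene was compared between populations and not with another gene.

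Of the 10 genes, 4 lay together on chromosome 11 of GRCm38 in the GENCODE annotation. Ccl2 (chr11:82035571-82037453), Ccl7 (chr11:82045712-82047525), Ccl11 (chr11:82057823-82062955) and Ccl8 (chr11:82115185-82116799) all lay on the plus strand. Another 4 lay on chromosome 5, Cxcl5 (chr5:90759360-90761624), Cxcl1 (chr5:90891241-90893115) and Cxcl13 (chr5:95956951-95961068) on the plus strand and Cxcl10 (chr5:92346638-92348889) on the minus strand. Cxcl12 (chr6:117168535-117181367) and Cxcl14 (chr13:56288643-56296551, minus strand) lay alone. Neighbours did not share 1 pattern, since Ccl11 was highest in other cells than Ccl2, Ccl7 and Ccl8.

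RefSeq windows of 250 bases that end just before the annotated start were matched for 6 of the 10 genes on GRCm38.p6. The 4 printed here are those of 2 genes known as inflammatory (Cxcl1) and interferon-induced (Cxcl10) chemokines and of the genes that led in pericyte-like cells (Cxcl12) and in the Col15a1 subset (Cxcl14). Capitals mark matches on either strand to GGGNNNTTCC (NF-kB type), GAAANNGAAA (interferon-stimulated response element type) or TGANTCA (AP-1 type). They are read 5′ to 3′ along the gene: Cxcl1 at chr5:90890995-90891244 on the plus strand, Cxcl10 at chr5:92348890-92349139 on the minus strand, Cxcl12 at chr6:117168285-117168534 on the plus strand and Cxcl14 at chr13:56296552-56296801 on the minus strand.
Cxcl1: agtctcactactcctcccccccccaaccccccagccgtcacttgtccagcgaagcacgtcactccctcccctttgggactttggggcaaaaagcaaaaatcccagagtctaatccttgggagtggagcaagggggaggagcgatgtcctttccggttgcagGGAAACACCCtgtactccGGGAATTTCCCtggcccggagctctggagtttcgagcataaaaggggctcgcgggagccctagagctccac
Cxcl10: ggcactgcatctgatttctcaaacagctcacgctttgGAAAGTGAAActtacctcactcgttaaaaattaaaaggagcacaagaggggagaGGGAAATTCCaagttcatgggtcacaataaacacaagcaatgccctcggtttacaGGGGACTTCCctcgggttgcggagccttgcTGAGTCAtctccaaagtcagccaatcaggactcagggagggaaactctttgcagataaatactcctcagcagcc
Cxcl12: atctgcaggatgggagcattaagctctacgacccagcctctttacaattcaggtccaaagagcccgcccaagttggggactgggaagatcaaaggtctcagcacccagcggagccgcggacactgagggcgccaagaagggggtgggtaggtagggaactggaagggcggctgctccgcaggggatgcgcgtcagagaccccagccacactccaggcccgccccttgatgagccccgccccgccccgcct
Cxcl14: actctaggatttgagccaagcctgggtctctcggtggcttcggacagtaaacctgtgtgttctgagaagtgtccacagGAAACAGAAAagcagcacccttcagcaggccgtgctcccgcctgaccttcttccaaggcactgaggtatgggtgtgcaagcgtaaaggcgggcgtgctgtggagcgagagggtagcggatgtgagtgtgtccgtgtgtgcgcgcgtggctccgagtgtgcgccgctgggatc
The Cxcl1 window held NF-kB type letters at 2 places, 89 to 80 and 71 to 61 bases before the start, of which the nearer read on both strands. In the Cxcl10 window there were NF-kB type letters at 2 places, interferon type letters 213 to 204 bases before the start and AP-1 type letters 74 to 68 bases before it. The Cxcl14 window held interferon type letters once, and the Cxcl12 window held none of the 3. Among 32851 windows of the same length, 4.65% held the NF-kB type, 2.98% the interferon type and 6.75% the AP-1 type letters. The other matched windows, those of Ccl8 and Cxcl13, also held none of the 3 types. Both held the letters TATAAA, as did 12.4% of all windows. A match is a stretch of letters and was not tested as a binding site.

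Most members were higher in fibroblast-like than in pericyte-like cells. In the E10 pulse library, 9 of the 10 genes were at least 2-fold higher in all fibroblast-like cells than in the 491 pericyte-like cells, against 15.4% of the 11384 genes with at least 100 UMIs in both populations together. In the adult pulse library the count was 8 of 9 genes with enough UMIs, against 14.4% of 11725 genes. The median ratio over all 10 members was 18.7 and 10.3, beside 0.836 and 0.823 over the genes with at least 100 UMIs. For these medians 0 UMIs were taken as 3, as for Ccl8 and Cxcl5 in adult pulse pericyte-like cells. Cxcl5 was included in the adult pulse median although it had too few UMIs to be counted there. Cxcl13 was 21.8-fold (95% interval 16.6 to 29.3) and 20.8-fold (10.1 to 51.8) higher in fibroblast-like cells, and Ccl11, the member with the smallest difference in the E10 pulse library, was 5.49-fold (4.81 to 6.29) and 8.21-fold (7.27 to 9.31) higher. Some of these ratios rest on few pericyte UMIs and moved by more than 1.5 times with the filters, such as that of Ccl8 in the E10 pulse library, 15.5 from 19 pericyte UMIs and 33.0 with at most 5% mitochondrial UMIs. Ccl8 had 0 UMIs in the 445 pericyte-like and the 530 tenocyte-like cells of the adult pulse library, where fibroblast-like cells held 32.9 CPM.

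**Figure D1:**
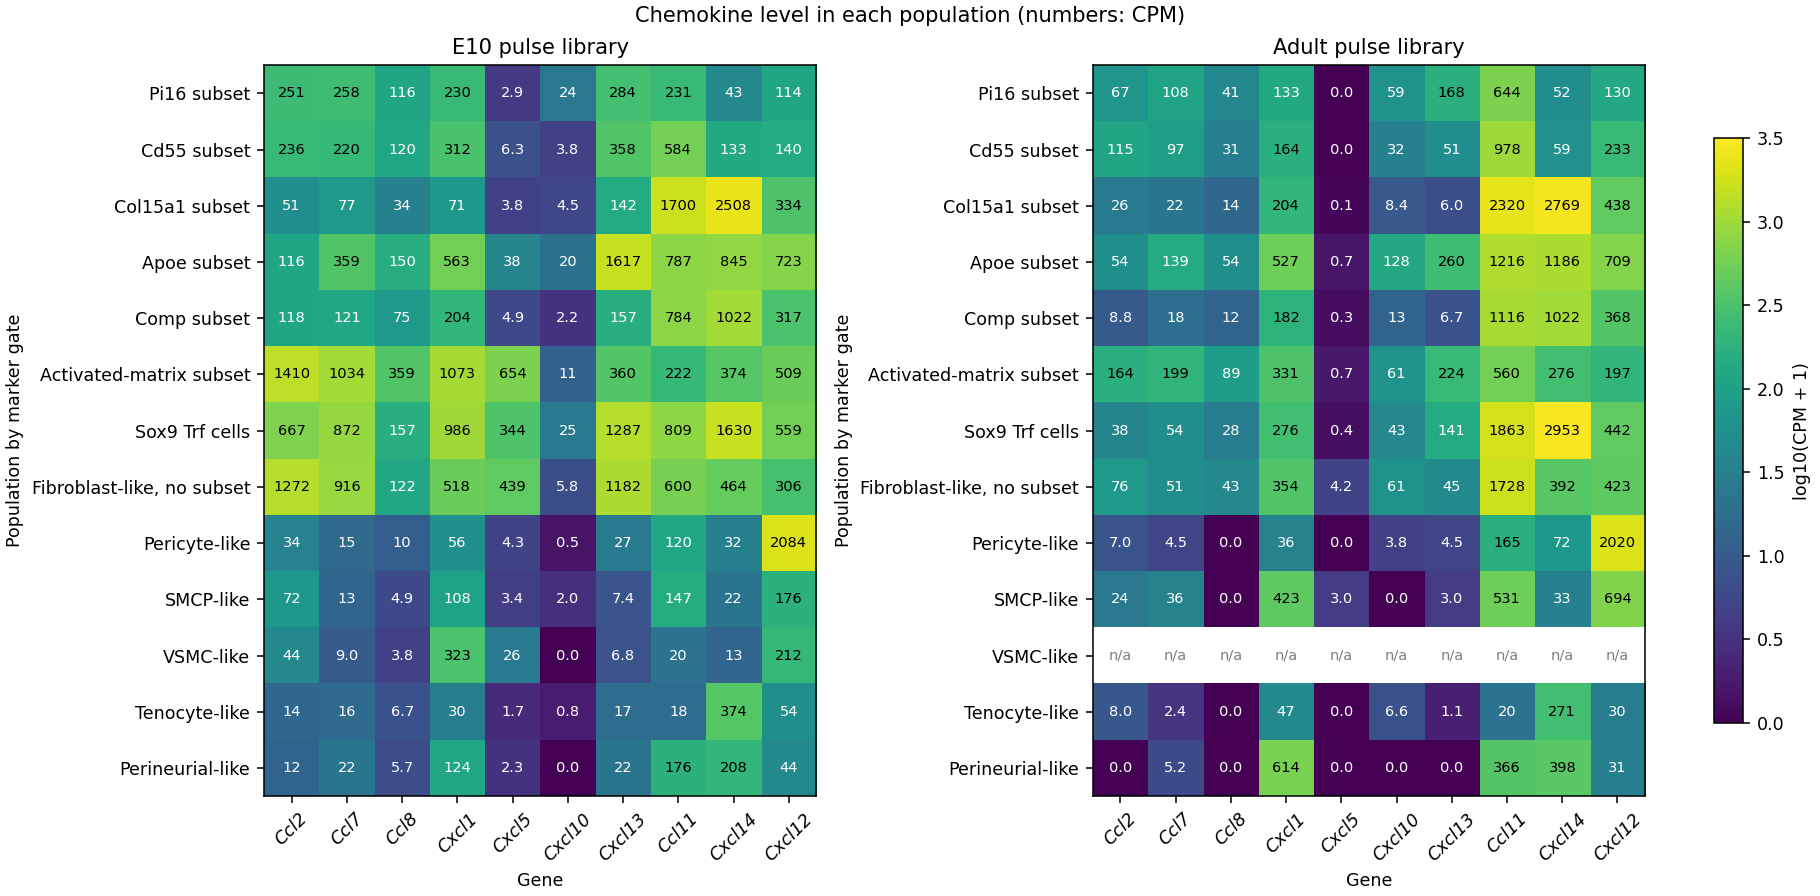
Level of each chemokine in each population set by marker gates, as a grid of genes (horizontal) by populations (vertical) for the E10 pulse library (left) and the adult pulse library (right); the number in each square is CPM and the colour is log10(CPM + 1), and n/a marks a population with under 30 cells. Cxcl12 peaks in pericyte-like cells (2084 and 2020 CPM) and Cxcl14 in the Col15a1 subset or the Sox9 Trf cells.

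Ccl11, which encodes eotaxin, was detected in a larger share of fibroblast-like cells than any other member. Its level in all fibroblast-like cells was 660.4 CPM (653.0 to 667.9) in the E10 pulse library and 1354.3 CPM (1344.9 to 1363.7) in the adult pulse library. After thinning every cell to 1500 UMIs, 46.7% and 67.6% of fibroblast-like cells held a Ccl11 UMI (69.0% and 86.4% without thinning). Tenocyte-like cells were taken as the reference, and they had the lowest Ccl11 CPM of the populations used in both libraries. They held a Ccl11 UMI in 3.1% and 3.4% of cells (8.41% and 12.8% without thinning). Their median depths were 4577 and 6239.5 UMIs against 8686 and 7672 in fibroblast-like cells. Ccl11 was highest in the Col15a1 subset, at 1699.9 CPM (1666.4 to 1733.9) and 2320.3 CPM (2295.0 to 2345.8). The Pi16 subset stood 7.35-fold and 3.6-fold below it, and the activated-matrix subset was lower still or level with Pi16, at 222.5 and 560.3 CPM. Sox9 Trf cells, fibroblast-like cells with the endoneurial markers Sox9 and Trf, held 809.1 and 1863.4 CPM, and in the E10 pulse library they did not differ from the Apoe subset (787.1 CPM) beyond counting error. Outside the fibroblasts the gene was above the tenocyte-like level (17.6 and 20.5 CPM) in SMCP-like cells (146.9 and 531.3 CPM) and perineurial-like cells (175.6 and 366.5 CPM). Pericyte-like cells were also above that level, at 120.3 and 165.0 CPM.

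Cxcl14 divided the fibroblasts more sharply than any other member, if compared between the Pi16 and Col15a1 subsets. The Col15a1 subset held 2507.6 CPM (2466.9 to 2548.8) and 2769.0 CPM (2741.4 to 2796.9). The Pi16 subset held 43.0 CPM (38.4 to 48.1) and 51.8 CPM (47.2 to 56.7), which is 58.3-fold and 53.5-fold lower. When the 5% highest-scoring cells for doublets were left out, the adult difference widened to 128.3-fold. The Cd55 subset held 133.0 and 58.7 CPM, above the Pi16 subset in the E10 pulse library and within overlapping intervals of it in the adult pulse library, and these Cd55 levels were 65.6 and 34.1 CPM without the cells of highest doublet score. The Comp and Apoe subsets lay between the Cd55 and Col15a1 subsets, at 1021.8 and 845.2 CPM in the E10 pulse library and 1022.2 and 1185.8 CPM in the adult pulse library. Sox9 Trf cells reached 1630.5 CPM and, in the adult pulse library, 2953.3 CPM, above the Col15a1 subset. The Col15a1 subset alone held 38.2% of all Cxcl14 UMIs in 9.23% of the UMIs of the E10 pulse library and 55.1% in 20.3% of those of the adult pulse library. Cxcl14 was also the only member with a sizeable level in tenocyte-like cells, 374.2 and 271.0 CPM, with thinned shares of 30.1% and 25.8% of those cells against 3.67% and 4.49% of pericyte-like cells.

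Cxcl12, the ligand of Cxcr4 and of the scavenging receptor Ackr3, was highest in pericyte-like cells. Pericyte-like cells held 2083.8 CPM (2018.9 to 2150.2) and 2019.5 CPM (1949.8 to 2091.1), 5.57-fold and 5.58-fold above all fibroblast-like cells. A Cxcl12 UMI was found in 86.4% and 84.5% of pericyte-like cells after thinning, against 29.4% and 33.8% of fibroblast-like and 9.29% and 4.91% of tenocyte-like cells. Pericyte-like cells contributed 15.8% and 12.1% of all Cxcl12 UMIs while holding 2.99% and 2.3% of all UMIs, so most Cxcl12 transcripts were still in fibroblasts. Among the fibroblast subsets the Apoe subset was highest, at 722.6 CPM (704.3 to 741.3) and 709.1 CPM (690.4 to 728.2), and the Pi16 subset lowest, at 114.0 and 130.3 CPM. Other mural cells were well below pericyte-like cells, since VSMC-like cells of the E10 pulse library held 211.5 CPM, or 117.3 to 126.3 CPM of Cxcl12 with at most 5% mitochondrial UMIs, without the highest doublet scores or without cells holding immune UMIs (10 VSMC-like cells of the adult pulse library were too few to use). SMCP-like cells held 176.4 CPM (158.6 to 195.6) in the E10 pulse library and 694.3 CPM (607.4 to 790.0) in the 55 cells of the adult pulse library, a 3.94-fold difference at median depths of 9410 and 5089 UMIs.

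Cxcl13, the B-cell attractant best known from lymphoid stroma, was highest in the Apoe subset, whose gate genes are Apoe, Fgf10 and Gdf10. These gate genes were chosen with earlier results of these data known, so the peak is a description and not an independent finding. This subset held 1616.6 CPM (1589.1 to 1644.3) in the E10 pulse library and 259.9 CPM (248.6 to 271.6) in the adult pulse library. It accounted for 45.1% and 35.9% of all Cxcl13 UMIs in 13.1% and 11.3% of all UMIs. In the adult pulse library the activated-matrix and Pi16 subsets followed at 224.1 and 168.1 CPM, while the Col15a1 and Comp subsets were almost without it, at 6.0 CPM (4.78 to 7.44) and 6.7 CPM (4.87 to 8.99). In the E10 pulse library the same 2 subsets held 142.5 and 156.8 CPM. High levels there were not particular to the Apoe subset, which stood 11.3-fold above the Col15a1 subset. Sox9 Trf cells stood 9.03-fold and cells with no subset 8.29-fold above it. After thinning, 17.7% and 5.15% of fibroblast-like cells held a UMI, against 3.1% and 0.189% of tenocyte-like cells.

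Cxcl10, an interferon-induced chemokine, was found in few cells. After thinning, 0.85% and 1.9% of fibroblast-like cells held a UMI (2.53% and 4.13% without thinning). Of the tenocyte-like cells, 0 of 226 held one in the E10 pulse library, where a floor of 3 cells would be 1.33%. In the adult pulse library 0.377% of 530 did. The E10 pulse share lay under that floor, so it was not told apart from the tenocyte-like share at this depth. Cxcl10 was highest in the Apoe subset of the adult pulse library, 127.8 CPM (119.9 to 136.1), followed by the activated-matrix (61.2 CPM) and Pi16 (59.0 CPM) subsets. In the E10 pulse library the Sox9 Trf cells (25.3 CPM), Pi16 subset (23.9 CPM) and Apoe subset (19.9 CPM) had overlapping intervals. The Col15a1 subset was low in both, at 4.51 and 8.38 CPM.

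The monocyte attractants Ccl2, Ccl7 and Ccl8 shared much of their distribution. Each was highest in the activated-matrix subset, gated on Tnc, Lrrc15, Cthrc1, Postn, Adam12 and Timp1. There Ccl2 was at 1409.8 CPM (1385.3 to 1434.6) in the E10 pulse library and 163.6 CPM (149.0 to 179.3) in the adult pulse library. Ccl7 was at 1033.7 CPM (1012.8 to 1055.1) and 198.9 CPM (182.7 to 216.0). Ccl8 was at 358.8 CPM (346.5 to 371.4) and 88.6 CPM (77.9 to 100.3). In the same subset of the E10 pulse library, 29.1% of cells held a Ccl2 UMI, 40.1% a Ccl7 UMI and 27.8% a Ccl8 UMI after thinning, against 3.54%, 3.1% and 1.77% of tenocyte-like cells. The lowest fibroblast subsets were Col15a1 in the E10 pulse library, with 50.8, 77.3 and 33.5 CPM, and Comp in the adult pulse library, with 8.83, 18.1 and 12.5 CPM. The activated-matrix gate did not select equal cells in both libraries, because its 6 genes summed to 5222.3 CPM in that subset of the E10 pulse library and 1620.0 CPM in the adult pulse library. In the E10 pulse library the subset was also deeper, with a median of 16681 UMIs, and carried 56.9 CPM of the 8 immune markers against 17.3 CPM in all fibroblast-like cells. Csf1r alone gave 53.6 CPM of this, and Ptprc was at 0. In the adult pulse library the markers summed to 3.2 CPM in the subset and 4.75 CPM in all fibroblast-like cells. Without cells holding immune UMIs, which left 326 of the 464 cells of this subset, Ccl2 was at 2221.8 CPM and Ccl7 at 1435.3 CPM, whereas Ccl8 was at 230.8 CPM. This filter acted mostly on Csf1r, with 699 UMIs in E10 pulse fibroblast-like cells. Fcer1g had 20 UMIs there, Tyrobp 4 and Ptprc 0. Over all fibroblast-like cells the ratios between the libraries with those cells left out were 8.45 for Ccl2, 5.73 for Ccl7 and 3.57 for Ccl8. Fibroblast-like cells that reached no subset score were also high in the E10 pulse library, at 1272.0 CPM of Ccl2 and 915.8 CPM of Ccl7, which were 677.7 and 543.7 CPM as a mean of per-cell CPM.

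The neutrophil attractants Cxcl1 and Cxcl5 were not distributed alike. Cxcl1 was broad: in the E10 pulse library the activated-matrix subset held 1073.0 CPM (1051.6 to 1094.7), the Sox9 Trf cells 985.7 CPM and the Apoe subset 562.7 CPM. In the adult pulse library the Apoe subset was the highest fibroblast subset, at 527.2 CPM (511.1 to 543.7), and the 37 perineurial-like cells held 614.3 CPM (508.9 to 735.1), which overlapped it. SMCP-like cells of that library held 422.6 CPM against 107.6 CPM in the E10 pulse library. A level of 322.9 CPM in VSMC-like cells of the E10 pulse library came from few cells, as 8.9% of them held any Cxcl1 UMI without thinning, and it was 17.8 CPM without cells holding immune UMIs. Cxcl5 was found almost only in the E10 pulse library, with 654.2 CPM (637.6 to 671.2) in the activated-matrix subset (1034.6 CPM of Cxcl5 without cells holding immune UMIs), 439.3 CPM in cells with no subset and 343.9 CPM in Sox9 Trf cells. In the other fibroblast subsets of that library it ran from 2.92 CPM in the Pi16 subset to 37.6 CPM in the Apoe subset. The 7121 fibroblast-like cells of the adult pulse library held 26 Cxcl5 UMIs in total, 0.441 CPM (0.288 to 0.647).

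The Pi16 and Col15a1 subsets, which the study describes as the main fibroblast states of muscle, differed in most members, in both directions. In the E10 pulse library 5 of the 9 members with at least 100 UMIs (Ccl2, Ccl7, Ccl8, Cxcl1 and Cxcl10) were at least 2-fold higher in the Pi16 subset, against 4.82% of 9068 genes, and 3 (Ccl11, Cxcl12 and Cxcl14) were at least 2-fold lower, against 6.02%. In the adult pulse library 5 of 9 (Ccl2, Ccl7, Ccl8, Cxcl10 and Cxcl13) were higher, against 5.31% of 10132 genes, and 3 (again Ccl11, Cxcl12 and Cxcl14) were lower, against 7.87%. Ccl2 was 4.95-fold (4.37 to 5.62) and 2.62-fold (2.29 to 2.99) higher in the Pi16 subset. That E10 value ranged from 2.7-fold as a mean of per-cell CPM to 8.08-fold with 1 more marker in every gate. Cxcl10 was 5.3-fold (3.49 to 8.34) and 7.03-fold (5.74 to 8.68) higher. Cxcl12 was 2.93-fold and 3.36-fold lower. Cxcl13 differed in size, 1.99-fold (1.84 to 2.16) in the E10 pulse library and 28.0-fold (22.5 to 35.4) in the adult pulse library, and the first of these crossed 2-fold under 7 of the alternative settings, up to 2.37-fold. Cxcl1 differed in direction, 3.21-fold (2.88 to 3.59) higher in the Pi16 subset of the E10 pulse library and 1.54-fold lower in that of the adult pulse library. Several of these differences were shared with other subsets. In the E10 pulse library, Ccl2 was 4.64-fold above the Col15a1 subset in the Cd55 and 27.7-fold in the activated-matrix subset. For Cxcl1 the Cd55 subset stood 4.37-fold and the Apoe subset 7.88-fold above it. Cxcl10 was not raised in the Cd55 subset there (ratio 0.832).

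Between the libraries, fibroblast-like cells of the E10 pulse library held more of the monocyte and B-cell attractants and less Cxcl10 and Ccl11. Of the 10 members, 5 (Ccl2, Ccl7, Ccl8, Cxcl5 and Cxcl13) were at least 2-fold higher in the E10 pulse library, against 4.58% of 12411 genes, and 2 (Ccl11 and Cxcl10) at least 2-fold lower, against 4.83%. The members' median ratio was 3.4 beside 1.04 over all genes. Ccl2 stood at 476.6 CPM (470.3 to 483.0) in the E10 pulse library and 63.3 CPM (61.3 to 65.4) in the adult pulse library, 7.52-fold (7.27 to 7.79). This ratio was 2.79 when only the Pi16, Cd55, Col15a1, Apoe and Comp subsets were compared, a choice made after seeing the data. Ccl7 was at 436.7 and 78.1 CPM, 5.59-fold (5.42 to 5.78), or 3.03-fold over those 5 subsets. Ccl8 was at 157.9 and 32.9 CPM, 4.8-fold (4.56 to 5.05). All 3 monocyte attractants were higher in the E10 pulse library in each of the 6 subsets, over ranges of 1.99 to 13.4, 2.27 to 6.66 and 2.33 to 6.03. Cxcl13 was at 595.3 and 92.9 CPM, 6.41-fold (6.23 to 6.6), or 4.07-fold with equal weight for the 6 subsets, and ran from 1.61-fold in the activated-matrix to 23.8-fold in the Col15a1 subset. Cxcl5 was at 169.3 and 0.441 CPM, 383.5-fold (261.5 to 587.5), a ratio set by 26 adult UMIs that came to 70.7 over the 5 subsets and 722.4 with 1 more marker in every gate.

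The remaining members stood closer together. Cxcl1 was at 483.0 and 242.3 CPM, a ratio of 1.99 (1.95 to 2.04) that was 1.32 over the 5 subsets. It was 3.24-fold higher in the activated-matrix subset of the E10 pulse library but 2.86-fold lower in its Col15a1 subset. Cxcl10 was at 12 CPM (11 to 13) and 44.5 CPM (42.8 to 46.2), which is 3.71-fold higher in the adult pulse library, and it was higher there in all 6 subsets. Ccl11 was 2.05-fold higher in the adult pulse library and likewise higher in all 6 subsets, by 1.36-fold to 2.78-fold, and fell under 2-fold in 5 alternative settings. Cxcl14, at 735.0 and 1117.7 CPM, was 1.52-fold higher in the adult pulse library, and it was 1.1-fold higher there within the Col15a1 subset, which made up a larger part of that library. Cxcl12 was close to level over all fibroblast-like cells, at 374.1 and 362.0 CPM, a ratio of 1.03 (1.01 to 1.05) that was 0.923 over the 5 subsets. It was also close to level in pericyte-like cells (1.03) and in the Apoe subset (1.02). Single subsets differed in both directions, with 2 of the 6 higher in the E10 pulse library and 4 in the adult pulse library. The ratios ran from 0.599 in the Cd55 subset to 2.58 (2.36 to 2.83) in the activated-matrix subset.

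**Figure D2:**
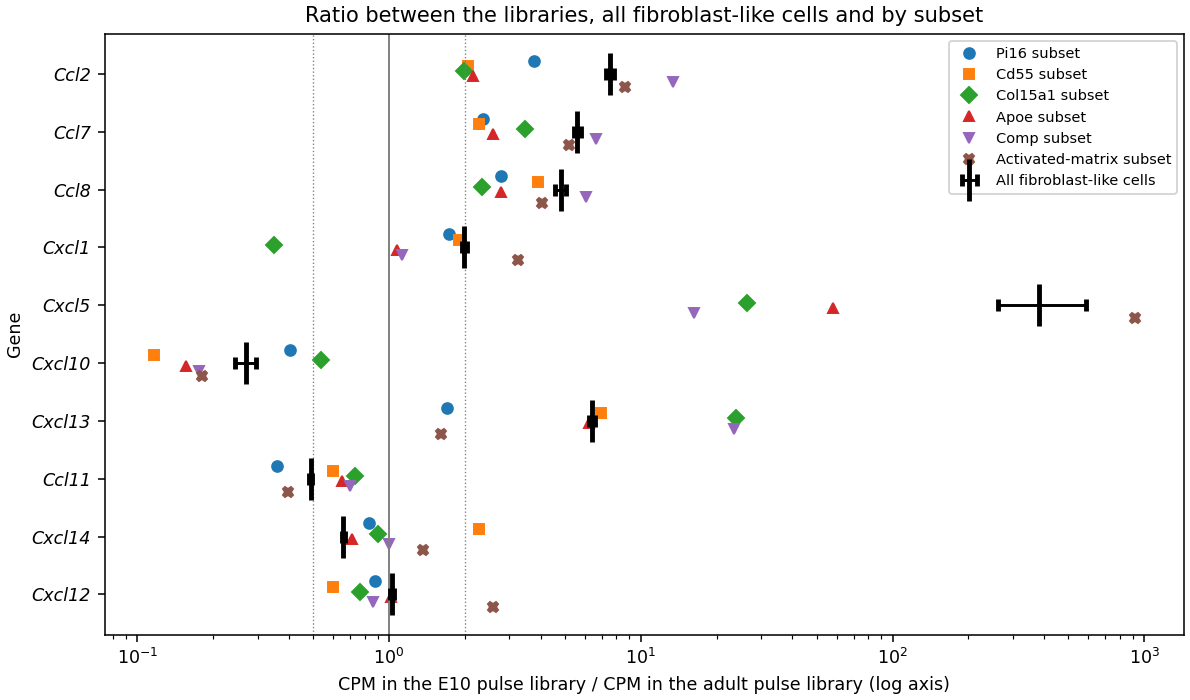
Ratio of CPM in the E10 pulse library to CPM in the adult pulse library on a log axis, 1 row per chemokine; black crosses are all fibroblast-like cells with their counting 95% interval, coloured points are single subsets, the solid line marks no difference and the dotted lines 2-fold. Ccl2, Ccl7, Ccl8, Cxcl5 and Cxcl13 lie to the right in every subset drawn, Ccl11 and Cxcl10 to the left, and Cxcl1, Cxcl12 and Cxcl14 on both sides; subsets with 0 UMIs in the adult pulse library are not drawn.

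Levels of several members came from few cells. Ranked by their UMIs, 26 of the 4235 fibroblast-like cells of the E10 pulse library (0.614%) held 50% of all Ccl2 UMIs, and 1 cell held 1320 of them. Of these 26 cells, 16 were in the activated-matrix subset, and their median depth was 28242 UMIs. In the adult pulse library 24 of 7121 cells (0.337%) held 50% of the Ccl2 UMIs, 6 of them in the activated-matrix and 6 in the Cd55 subset, at a median depth of 13100.5 UMIs. Cxcl5 was held by still fewer, with 50% of its UMIs in 13 cells of the E10 pulse library. Cxcl10 reached 50% in 11 and 22 cells. Ccl7 reached it in 69 cells (1.63%) and 51 cells (0.716%), and Cxcl13 in 98 cells (2.31%) and 72 cells (1.01%). Ccl11 was the opposite case, with 511 cells (12.1%) and 1277 cells (17.9%) needed to reach 50%, and Cxcl12 needed 252 and 897 cells. Most Ccl2, Cxcl5 and Cxcl10 UMIs thus came from a small number of cells with many of them, and Ccl11 and Cxcl12 UMIs from many cells.

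**Figure D3:**
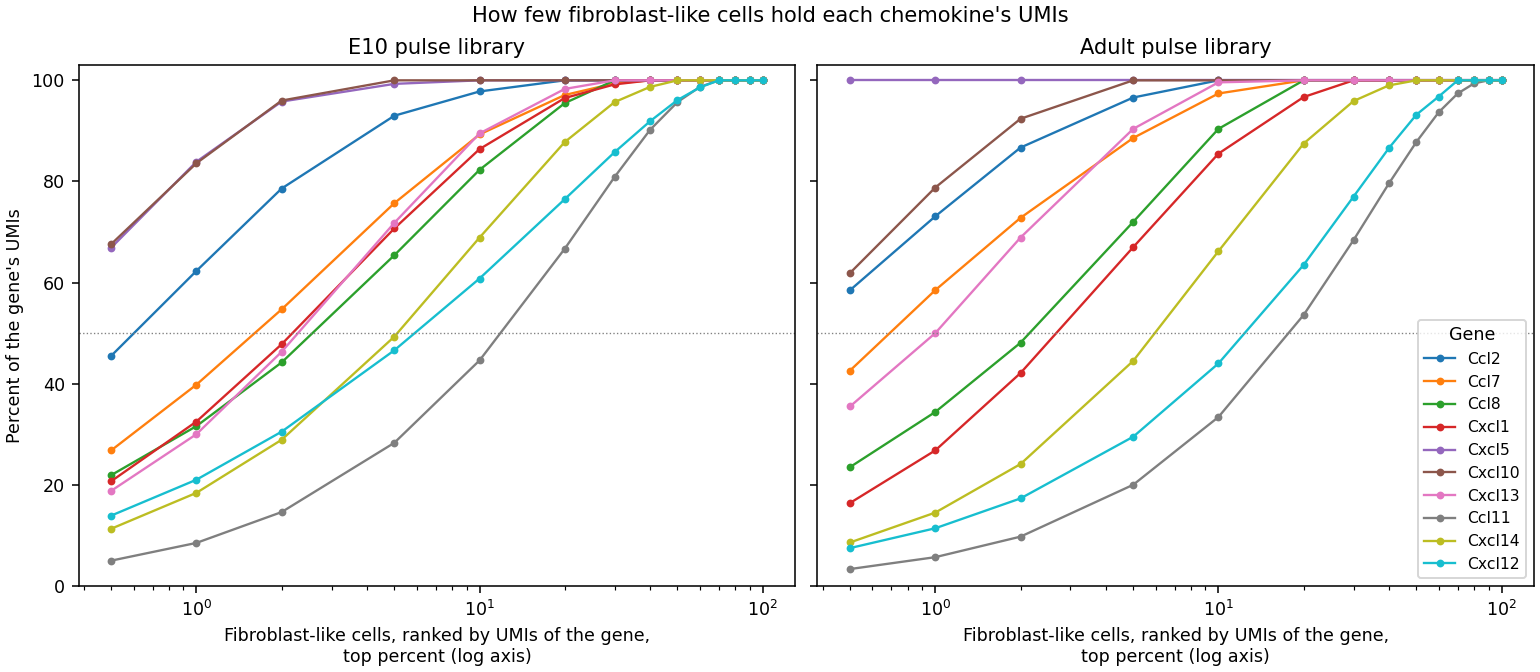
Cumulative percent of each chemokine's UMIs (vertical) held by the top percent of fibroblast-like cells ranked by that gene's UMIs (horizontal, log axis), for the E10 pulse library (left) and the adult pulse library (right); the dotted line marks 50% of the UMIs. Ccl2, Cxcl5 and Cxcl10 pass 50% before 1% of cells in both libraries, and so does Ccl7 in the adult pulse library. Ccl11 passes it only after 10% in both libraries, and so does Cxcl12 in the adult pulse library. The flat Cxcl5 line of the adult pulse library stands for 26 UMIs.

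Cells with a UMI of Ccl2 carried some other chemokines more often than the remaining cells. In thinned fibroblast-like cells of the E10 pulse library, 58.2% (53.1 to 63.1) of the 392 cells with a Ccl2 UMI also held Ccl7, against 10.8% of the others. The adult pulse library gave 29.6% (23.4 to 36.3) of 203 cells against 3.61%. Cxcl5 was found in 20.7% of Ccl2 cells of the E10 pulse library against 1.04% of the others, which is 7.23 times the product of the separate shares. Cxcl1 was found in 45.7% of these Ccl2 cells against 15.3%, and Cxcl12 in 38.5% against 28.5%. For Ccl8 the shares were closer, 14.0% against 9.42%. Ccl11 (41.6% against 47.2%), Cxcl13 (16.6% against 17.8%) and Cxcl14 (30.1% against 32.1%) were not raised in these Ccl2 cells. Cxcl10 was found in 8.87% of Ccl2 cells of the adult pulse library against 1.69%, and Cxcl13 in 18.5% of Cxcl10 cells there against 4.9%. Cxcl14 and Ccl11 were found in smaller shares of some of these cells, as Cxcl14 was found in 21.9% of adult Ccl7 cells against 35.3% of the others and Ccl11 in 33.8% of E10 Ccl8 cells against 48.1%. These shares are over cells of 1 library each, with all fibroblast subsets pooled, and describe it without a test. Of the partners picked after their values were seen, Cxcl3 occurred in 9.92% of the 121 Cxcl5 cells of the E10 pulse library against 0.146%, and Ptx3, a secreted pattern-recognition protein, in 45.5% against 9.48%.

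**Figure D4:**
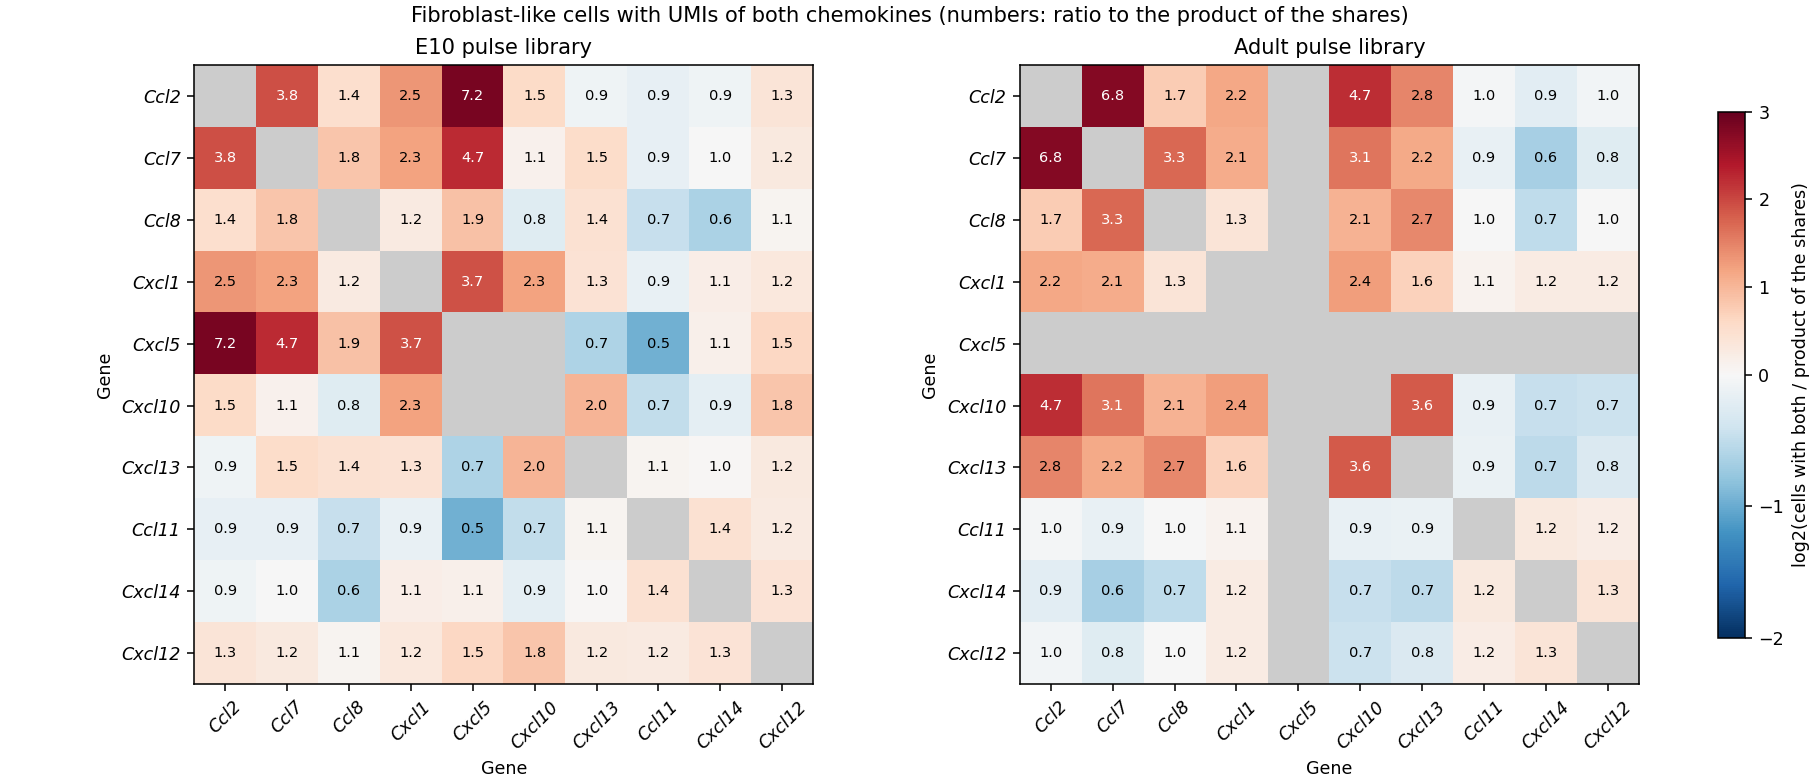
Number of fibroblast-like cells with UMIs of both chemokines divided by the number given by the product of their shares, after thinning each cell to 1500 UMIs, as a grid of genes by genes for the E10 pulse library (left) and the adult pulse library (right); the colour is the log2 of the printed ratio and grey marks pairs with too few cells. Ccl2 and Ccl7 stand at 3.84 and 6.79, Ccl2 and Cxcl5 at 7.23 in the E10 pulse library, and pairs of Cxcl14 with Ccl8 lie below 1 in both.

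Cells with a Cxcl1 UMI also held more transcripts of 10 NF-kB target genes, 1650.2 CPM against 511.3 CPM in the other fibroblast-like cells of the E10 pulse library (3.23-fold) and 1351.3 against 555.2 CPM in the adult pulse library (2.43-fold). For Cxcl10 the 11 interferon response genes were 2.07-fold and 2.88-fold higher in cells with a UMI. Neither list was particular to 1 member. In the E10 pulse library the interferon list was 2.51-fold higher in Ccl2, 2.37-fold in Ccl7 and 2.25-fold in Cxcl5 cells, and the NF-kB list was 2.18-fold, 2.37-fold and 2.37-fold higher in the same cells. Cxcl10 cells also held more NF-kB target transcripts, 2.3-fold and 2.24-fold. Ccl11 cells went the other way, with 0.809 and 0.777 times the NF-kB target level and 0.503 and 0.38 times the level of the 6 activated-matrix genes. The 12 immediate early and heat shock genes, which tissue dissociation can raise, were 1.97-fold and 2.6-fold higher in Cxcl1 cells, 2.0-fold and 1.71-fold higher in Cxcl10 cells and close to level in Ccl8 cells (0.866 and 1.01). Their part in the Cxcl1 and Cxcl10 levels was not tested. Among the populations used, the sum of these 12 genes was highest in the Apoe subset, at 12487.5 CPM (E10 pulse) and 19562.4 CPM (adult pulse). Single genes differed. In both libraries Jun and Dnajb1 were highest in the Apoe subset, but Fos, Junb, Ier3 and Zfp36 in perineurial-like cells.

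Over all fibroblast-like cells the lists differed in how they compared between the libraries, and their counts stand beside the 4.58% and 4.83% of all genes that were 2-fold higher and lower in the E10 pulse library. None of the 10 NF-kB targets and none of the 12 immediate early genes differed by 2-fold, and their median ratios, E10 over adult, were 1.26 and 0.739. Of 11 interferon response genes, 1 (Isg15, 2.67-fold) was higher in the E10 pulse library and 3 (Ifit2, 2.05-fold, Ifit3, 30.9-fold, and Cxcl9, 5.92-fold) in the adult pulse library. The 8 acute-phase genes had a median ratio of 2.62, and 4 of them (Saa3, Lcn2, Ptx3 and Serpina3n) were at least 2-fold higher in the E10 pulse library. Saa3, a serum amyloid gene, had 3837 UMIs there and 0 in the adult pulse library. Of 8 genes for chemokine-binding matrix and Cxcl12 regulation none differed by 2-fold. Ebf1, a transcription factor of this list, was highest in pericyte-like cells in both libraries (2321.7 and 2903.2 CPM), where Cxcl12 was also highest. The list did not share this pattern. Ebf2 (424.1 and 454.2 CPM) and Foxc1 (115.2 and 72.3 CPM) were highest in perineurial-like cells, which held 44.5 CPM of Cxcl12 in the E10 pulse library. Ebf3 was highest in pericyte-like cells (73.3 CPM) of the E10 pulse library and in SMCP-like cells (60.4 CPM) of the adult pulse library. A link of these genes to Cxcl12 was not tested.

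Beside the 10 members, 34 features of the chemokine family were listed, of which 16 had 0 UMIs in kept cells and 10 had at least 100 UMIs over both libraries. Of these, 9 reached that number within the fibroblasts, and 4 were at least 2-fold higher in the E10 pulse library and 1 lower. The neutrophil attractants Cxcl2 and Cxcl3 were 14.2-fold (12.1 to 16.9) and 530.7-fold (146.4 to 4389.5) higher in the E10 pulse library, the latter against 2 adult UMIs. Ccl5, a T-cell and monocyte attractant, was at 4.93 and 0.136 CPM, and Ccl19, a ligand of Ccr7, at 7.71 and 1.92 CPM. The Ccl5, Cxcl3 and Cxcl2 levels of the E10 pulse library came from few cells. After thinning, 1 of its 4235 fibroblast-like cells held a Ccl5 UMI, although they held 224 without thinning. A Cxcl3 UMI was found in 18 and a Cxcl2 UMI in 49 of these thinned cells of the E10 pulse library. Cxcl9, which like Cxcl10 is a Cxcr3 ligand, was lower there, at 1.59 against 9.39 CPM. Cxcl16 (24.5 and 44.4 CPM), Ccl27a, Ccl25 and Cx3cl1 differed by less than 2-fold.

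Of the 13 receptor genes, 5 had at least 100 UMIs over the fibroblast-like cells of both libraries, the scavenging receptors Ackr1, Ackr2, Ackr3 and Ackr4 and the signalling receptor Cx3cr1. Ccr1, Ccr3, Cxcr3 and Cxcr5 had 0 UMIs in fibroblast-like cells of both libraries, and Cx3cr1, the receptor of Cx3cl1, was at 7.97 and 6.31 CPM. Ackr3, which binds and removes Cxcl12, was at 392.9 and 500.2 CPM in all fibroblast-like cells and highest in the Cd55 subset (627.8 and 835.1 CPM), where Cxcl12 was at 139.8 and 233.3 CPM. Ackr1 (54.6 and 25.3 CPM) was 2.16-fold higher in the E10 pulse library, the only one of these 5 to differ by 2-fold, while Ackr4 was at 4.12 and 6.54 CPM. Cxcr4, the signalling receptor of Cxcl12, stayed at 0.661 and 1.17 CPM.

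Across the 23 points given by the named populations of both libraries, the likeness of log2(CPM + 5) was measured by Pearson r and is a description, since the points share libraries and depths. Ccl7 and Ccl8 were most alike (r = 0.96), Ccl7 and Ccl8 were each close to Cxcl13 (both 0.93), and Ccl2 followed Ccl7 (0.9). Ccl11 and Cxcl5 were least alike (-0.06). Among 9230 genes, those closest to Cxcl1 were Tnfaip3 (0.84), Nfkbiz (0.78) and Nfkbia (0.77), all of them NF-kB targets. Closest to Cxcl13 was the complement gene C4b (0.93), which was also close to Ccl8 (0.94). Ccl11 was followed by H2-M3 (0.95), Cxcl12 by Ggt5 (0.86) and Cxcl14 by Tspan11 (0.9). Ccl2 had Rpl36al, Prr13 and Lgals3 (each 0.91) as its nearest genes, Ccl7 had Figf (0.91), Cxcl5 had Ranbp1 (0.89) and Cxcl10 had Pnp (0.87).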

How the data were processed

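Single-cell RNA was counted in 2 libraries, 1 per group, so no test, p-value or replicate error was possible. The deposited values are raw UMI counts per gene and barcode, which the authors made with Cell Ranger 3.0.2 (adult pulse) and 5.0.0 (E10 pulse), per the file headers, against mm10. Groups came from the sample titles. The members, marker lists and gene lists were chosen with earlier results of these data known, and gate limits were set after marker distributions, but no chemokine values, were seen. Cells with fewer than 1500 UMIs or over 10% mitochondrial UMIs were left out; cells passing gates of 2 types, or another gate with 7 or more fibroblast markers, were set aside as mixed, and populations under 30 cells were not used. Subset scores were means of log-normalised markers scaled within a library, with a minimum of 0.25 (near: within 0.05). Intervals are exact at 95% (Poisson for CPM, conditional binomial for ratios, Clopper-Pearson for shares). A gene entered a comparison with 100 UMIs, and a difference was counted from 2-fold. Genes named were the 10 members, chemokine features with at least 100 UMIs, fixed lists of receptors, NF-kB targets, interferon response, immediate early, acute-phase and Cxcl12-related genes, and the 3 nearest by Pearson r. Doublets were not removed in the values reported; an alternative used Scrublet scores (scanpy 1.11.5). Python 3.11.15, numpy 2.4.6, scipy 1.17.1 and pandas 2.3.3 were used. The fibroblast-like gate and the ratios were checked on cells simulated from the populations' own profiles. The subset gates and the intervals were not checked in this way. Comparisons made by the authors were not used.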

Additional observations from a re-analysis of the deposited data

Results flagged for a closer look

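Cxcl1 differed in opposite directions between the Pi16 and Col15a1 subsets of the 2 libraries. The ratio of its CPM, Pi16 over Col15a1, was 3.21 (2.88 to 3.59) in the E10 pulse library and 0.649 (0.606 to 0.695) in the adult pulse library. Both groups hold 1 library, and the difference between these ratios was not tested.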

How the results depend on the processing

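No paired analysis was possible because each group holds 1 library, and for the same reason no replicate could be left out. No difference of 2-fold or more reversed its direction under an alternative. Of the ratios under 2-fold, that of Cxcl12 between the libraries (1.03) was 0.903 as a mean of per-cell CPM, 0.934 without cells holding immune UMIs, 0.923 over the 5 subsets and 0.902 with thinning to 1500 UMIs, and the Cxcl5 ratio of Pi16 to Col15a1 subset in the E10 pulse library (0.764) was 1.06 as a mean of per-cell CPM. Of 195 levels over 20 CPM, 22 moved by more than 1.5 times as a mean of per-cell CPM, and 8 without cells holding immune UMIs. Among the first were the levels in all fibroblast-like cells of the E10 pulse library of Ccl2 (292.0 CPM), Ccl7 (278.5 CPM), Ccl8 (98.8 CPM) and Cxcl5 (87.4 CPM). The numbers of members past 2-fold stayed within 1.5 times their reported values under every alternative run, except the members lower in fibroblast-like cells of the E10 pulse library. That number was 2 (Ccl11 and Cxcl10) as reported and 1 as a mean of per-cell CPM, 1 without cells holding immune UMIs and, in alternatives chosen after seeing the data, 1 over the 5 subsets only, 1 with equal weight for the 6 subsets and 1 with each cell thinned to 1500 UMIs. The member lost was Ccl11 in each, at 1.83-, 1.85-, 1.73-, 1.59- and 1.82-fold higher in the adult pulse library. The Cxcl1 ratio of 1.99 between the libraries passed 2-fold with a minimum of 3000 UMIs (2.01) and at most 5% mitochondrial UMIs (2.02). The depth of each cell limits the shares: all 20 shares moved beyond their intervals without thinning and 19 of 20 with cells thinned to 3000 UMIs. Cxcl5 in the adult pulse library, with 26 UMIs in fibroblast-like cells, and members in the 37 perineurial-like and 55 SMCP-like cells of that library are limited by counts.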
